A study of Rattus norvegicus with 4 samples.

Results

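Genes of fatty acid oxidation and the fasting response were followed in rat stomach after treatment with octreotide, a long-acting analogue of the hormone somatostatin. The members were named by pathway and not by their values: the carnitine transferases Cpt1a and Cpt2, the acyl-CoA dehydrogenases Acadm, Acadl and Acadvl, the trifunctional protein subunits Hadha and Hadhb, and the kinase Pdk4. These 8 genes, of 10411 genes named on the Affymetrix RAE230A chip, were read by 9 of its 15866 probe sets, 2 of them for Cpt1a. The tissue was scraped oxyntic mucosa, which lines the gastric corpus and holds the acid-secreting parietal cells. Octreotide LAR, the slow-release depot of the drug, had been given at 5 mg per animal, and 21 days is the labelled time. RNA of 6 treated animals went onto 3 chips, here pools 1 to 3 of 2 animals each, and RNA of 8 animals given the vehicle of the depot went as 1 pool onto a single chip. All animals were female Sprague-Dawley rats, 8 weeks old by the labels. The protocol, worded alike for both groups, includes a fast overnight before anaesthesia, so every chip shows fasted tissue and no fed state was compared. The vehicle group has no spread of its own, and in such scraped tissue fewer cells of a type and less RNA per cell cannot be told apart.

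Long-chain fatty acids enter mitochondria as carnitine esters. Cpt1a forms these esters at the outer membrane, the step that malonyl-CoA inhibits, and Cpt2 turns them back into acyl-CoA at the inner membrane. Acadvl, Acadl and Acadm then open each round of beta-oxidation on very long, long and medium chains, and the trifunctional protein, built of the alpha subunit Hadha and the beta subunit Hadhb, carries out the later steps on long chains. Pdk4 phosphorylates and so inactivates pyruvate dehydrogenase, which spares glucose while fat is burnt. In liver, fasting raises many of these transcripts through the fatty acid receptor PPAR alpha. In the oxyntic mucosa the parietal cell is rich in mitochondria, which fuel its proton pump.

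The promoters of 7 members were found in the RefSeq table of the GRCr8 rat assembly, and 3 stretches are shown because they tie members to each other or hold a searched motif. Hadha and Hadhb lie head to head on chromosome 6 with 300 bases between their starts, and the 200 bases shown, on the plus strand on which Hadha lies, are within the 250 bases upstream of both. The upstream 250 bases of Acadvl (minus strand) hold AGGTCA, the hexamer that nuclear receptors such as PPAR alpha recognise. Those of Acadm (minus strand) hold TGACGTCA, the cAMP response element. Capitals mark these matches.
Hadha and Hadhb, chr6:31907551-31907750: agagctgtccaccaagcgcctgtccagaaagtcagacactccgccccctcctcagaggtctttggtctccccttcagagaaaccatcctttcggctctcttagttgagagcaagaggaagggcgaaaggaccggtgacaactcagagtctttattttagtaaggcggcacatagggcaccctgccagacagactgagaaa
Acadvl, chr10:55236706-55236955: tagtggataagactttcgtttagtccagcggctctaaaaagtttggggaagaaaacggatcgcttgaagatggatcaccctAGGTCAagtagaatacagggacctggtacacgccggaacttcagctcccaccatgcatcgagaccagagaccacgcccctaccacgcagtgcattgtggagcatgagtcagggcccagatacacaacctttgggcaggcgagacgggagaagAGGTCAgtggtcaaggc
Acadm, chr2:245542865-245543114: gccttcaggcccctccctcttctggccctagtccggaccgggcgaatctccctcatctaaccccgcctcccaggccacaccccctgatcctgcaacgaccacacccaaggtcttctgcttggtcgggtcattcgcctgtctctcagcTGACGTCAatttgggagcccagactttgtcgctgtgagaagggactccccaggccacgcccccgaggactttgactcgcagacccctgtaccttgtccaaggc
AGGTCA was searched on both strands in the 250 bases before each start. Among the 7 member promoters it was matched in that of Acadvl alone, at 169 to 164 and at 17 to 12 bases before the start, and 14.1% of all 33469 promoters held a match. A direct repeat of the hexamer with 1 base between the copies is the arrangement that PPAR binds together with RXR. Counted as exact letters only, it was matched in 0 of the 7 and in 0.0508% of all promoters. The Acadvl match at 17 to 12 bases before the start is followed, after 1 base, by tggtca, an inexact copy that was not counted. TGACGTCA, which reads the same on both strands and was chosen after the promoters were seen, lay 103 to 96 bases before the start of Acadm, and 1.59% of all promoters held it. The stretch between Hadha and Hadhb held no match to AGGTCA or TGACGTCA. A match is a description of these letters only.

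The chips carried the markers of the labelled tissue. Atp4a, the catalytic subunit of the parietal cell proton pump, read 28932, 26680 and 23835 in pools 1 to 3 and 26693 on the vehicle chip. The 7 parietal markers together summed to 91893, 82202 and 77546 in the pools and 85837 in vehicle. Most of this sum came from Atp4a and Atp4b. Of the 7, 2 were lower in every pool and 0 higher in every pool. Kcnq1 read 2037, 1460 and 2304 in the pools and 2855 in vehicle. Kcne2 read 522.1, 528.3 and 588.1 against 709.4 by its brightest probe set. The 4 chief cell markers summed to 88481, 89508 and 82795 in the pools and to 102378 in vehicle. They did not move together. Cym read 3952, 8204 and 7561 in the pools and 19071 in vehicle, and Cblif was also lower in every pool. Pgc, the largest part of the sum, and Pga5 each lay on both sides of vehicle. The 3 surface mucous markers, all higher in every pool, summed to between 114548 and 120734 and to 105766 in vehicle. Markers of the squamous forestomach, which borders the corpus, differed between the groups. The 10 on the chip summed to between 5503 and 8207 in the octreotide LAR pools and to 1629 in vehicle. All 10 were higher in every pool, and 6 passed the threshold. Of all genes tested, 24% were lower in every pool and 25.2% higher, and 0.105% of all probe sets tested passed. The 5 adipocyte markers on the chip, 3 of them dim, summed to 1667, 711.3 and 828.6 in pools 1 to 3 and to 708.9 in vehicle. They did not move together: Fabp4, a fatty acid carrier, read 922.1, 341.0 and 428.3 in the pools and 346.2 in vehicle, and Cfd, a secreted protease, 363.5, 86.3 and 197.3 in the pools and 216.8 in vehicle. Of the dim ones, the lipase gene Lipe read 278.8, 117.4 and 171.4 in the pools and 40.7 in vehicle, all higher, the droplet coat gene Plin1 86.5, 140.0 and 18.6 in the pools and 90.8 in vehicle, and the hormone gene Lep 16.4, 26.6 and 13.0 in the pools and 14.4 in vehicle. The 5 intestinal markers, 3 of them dim, summed to between 1258 and 1877 in the pools and to 824.1 in vehicle. Among these Fabp2, the intestinal fatty acid carrier, passed, with 1082, 1488 and 1423 in the pools and 533.2 in vehicle (adjusted p = 0.047 in limma). Most of each sum came from Fabp2, and the others did not move together. Fabp1 read 102.5, 229.5 and 150.8 in the pools and 168.4 in vehicle. Apoa1 read 16.9, 79.3 and 117.8 in the pools and 95.8 in vehicle. Apoa4, like these, lay on both sides of vehicle, and Alpi was higher in every pool. The part of other tissue in the member values was not tested.

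The question put to the chips was which mucosal transcripts differ after octreotide LAR. None of the 7 members tested passed (limma, Benjamini-Hochberg adjusted p under 0.05), and 0 of 7 had an unadjusted p under that value (1 of 7 without pool 1, and 1 of 8 with dim probe sets kept). Over the chip 10 of 9520 probe sets passed, or 0.105%, so 0 of 7 is close to the background. Of these 10, 6 were the forestomach markers mentioned above and 1 was Fabp2. Pdk4 was too dim to be tested. The log2 differences of the 7 members ran from -0.32 for Acadm to 0.00 for Cpt1a, with a median of -0.061 and a median of -0.00087 for the 7150 genes tested. The members' median was -0.093 without pool 1. The 95% interval of every tested member stayed within 2-fold of the vehicle chip in either direction, and that of 5 members within 1.5-fold, on the assumption that the lone vehicle chip varies like the treated ones.

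**Figure D1:**
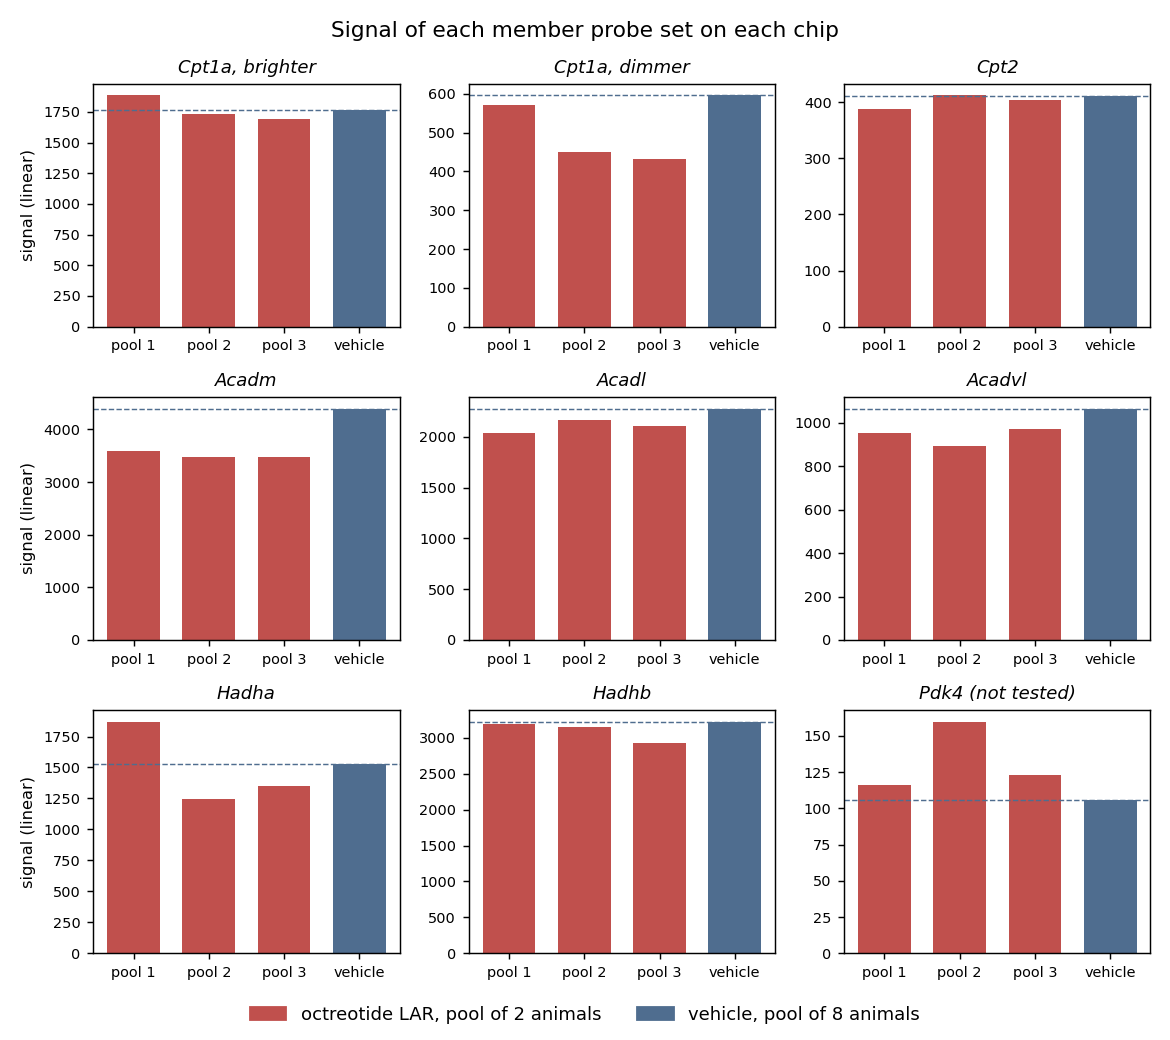
Linear signal (y axis, from 0) of the 9 member probe sets on each chip, red for the 3 octreotide LAR pools and blue for the vehicle pool, whose level is carried across as a dashed line. All 3 pools lay below the line for Acadm, Acadl, Acadvl, Hadhb and the dimmer Cpt1a probe set, above it for Pdk4, and on both sides for the others.

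The carnitine transferases had no common direction. The brighter Cpt1a probe set read 1887, 1736 and 1694 in pools 1 to 3 (1772 ± 102, SD, n = 3) and 1765 in vehicle. The vehicle value lay among the treated ones, and the log2 difference was 0.00 (95% interval -0.38 to 0.39, adjusted p = 0.9998 in limma). Its sign turned to -0.04 when pool 1 was left out. The dimmer Cpt1a probe set read 571.6, 451.0 and 430.8 in the pools (484.5 ± 76.1, SD, n = 3) and 596.1 in vehicle. Here all pools were lower, pool 1 only slightly, and the log2 difference was -0.30 (95% interval -0.83 to 0.23, adjusted p = 0.9998 in limma). The probe sets of this one gene thus disagreed: the log2 difference of the brighter exceeded that of the dimmer by 0.15, 0.37 and 0.40 in pools 1 to 3, and their mean gave -0.15 for Cpt1a. Cpt2, the inner membrane enzyme, read 387.7, 412.5 and 404.0 in the pools (401.4 ± 12.6, SD, n = 3) and 411.9 in vehicle. The vehicle value sat just under that of pool 2, and the log2 difference was -0.04 (95% interval -0.56 to 0.49).

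In all 3 acyl-CoA dehydrogenases every pool lay below vehicle. Acadm, the medium-chain enzyme, read 3589, 3484 and 3483 in pools 1 to 3 (3519 ± 60.9, SD, n = 3) and 4396 in vehicle. The pools agreed closely and all stayed under the vehicle signal. The log2 difference of Acadm was -0.32 (95% interval -0.66 to 0.02, unadjusted p = 0.064 and adjusted p = 0.9998 in limma), and 21.3% of all genes tested differed by as much or more in either direction. Acadl, the long-chain enzyme, read 2036, 2164 and 2108 in the pools (2103 ± 64.4, SD, n = 3) and 2280 in vehicle. Its log2 difference was -0.12 (95% interval -0.48 to 0.25). Acadvl, the very-long-chain enzyme whose promoter holds the 2 AGGTCA matches shown above, read 953.3, 894.4 and 971.2 in the pools (939.6 ± 40.2, SD, n = 3) and 1065 in vehicle. Its log2 difference was -0.18 (95% interval -0.60 to 0.24). For all 3 dehydrogenases the groups did not overlap, as was so for 24% of all genes tested in this direction and 25.2% in the other. Each 95% interval included 0.

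The subunits of the trifunctional protein had the same mean difference and unequal spread. Hadha read 1869 in pool 1, above the vehicle signal of 1525, and 1242 and 1347 in pools 2 and 3, below it (1486 ± 336, SD, n = 3). Its log2 difference was -0.06 (95% interval -0.55 to 0.43) and turned to 0.06 without pool 2. Hadhb read 3193, 3155 and 2927 in the pools and 3223 in vehicle, so that all pools were lower, pool 1 only slightly. Its log2 difference was -0.06 (95% interval -0.41 to 0.29). The log2 difference of Hadha minus that of Hadhb, the gene on the other side of the stretch shown above, was 0.30, -0.26 and -0.04 in pools 1, 2 and 3. The SD over pools was 0.31 for Hadha and 0.07 for Hadhb on the log2 scale, against a median of 0.18 for all genes tested.

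Pdk4 was the faintest member. It read 116.3, 159.7 and 122.8 in pools 1 to 3 (132.9 ± 23.4, SD, n = 3) and 105.7 in vehicle, and its mean level lay under the 144.7 required for a test. All pools were above vehicle, pool 2 most, at a log2 difference of 0.28 that carries no test here. With dim probe sets kept in the fit it did not pass (adjusted p = 0.9996 in limma). Of its target complex, Pdhb, the beta subunit of the dehydrogenase, read 3052, 2933 and 2873 in the pools and 3525 in vehicle, all lower. Pdhx, which anchors a further subunit to the core, read 651.2, 444.9 and 266.7 in the pools and 531.1 in vehicle, on both sides. The related kinase Pdk2 read 807.6, 448.4 and 562.0 in the pools and 618.6 in vehicle, also on both sides. The pyruvate dehydrogenase list had 9 tested genes, 6 below and 3 above vehicle in the mean, with 0 called and a median log2 difference of -0.07, which was -0.21 without pool 1 and 0.018 without pool 3.

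**Figure D2:**
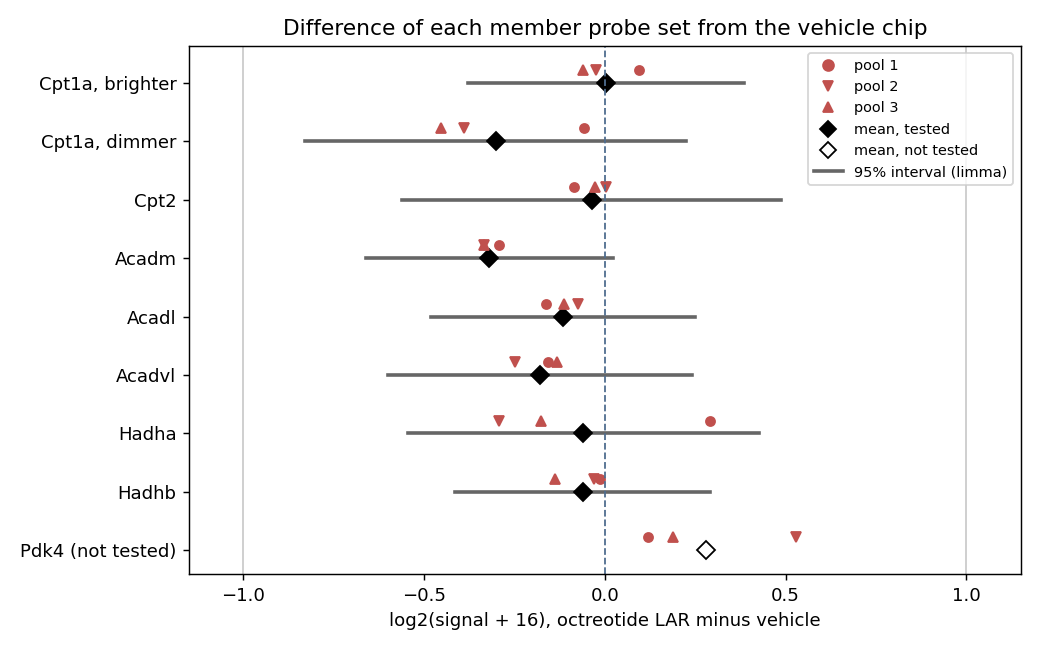
Log2 difference from the vehicle chip (x axis, log2 of signal + 16) of each member probe set, with red symbols for pools 1 to 3, a diamond for their mean and a bar for limma's 95% interval. Every interval crosses 0 and none reaches the grey lines at 2-fold, and the open diamond of Pdk4 at 0.28 has no interval.

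Of the 7 tested members, 6 lay below vehicle in the mean, against 50.2% of all genes tested, and 4 of them, Acadm, Acadl, Acadvl and Hadhb, in all 3 pools, against 24% of all genes tested. That count became 5 with quantile normalization or with chips centred on the 75th percentile, and 6 without pool 1 and 5 without pool 2, over the remaining pools. The SD over pools of the members' log2 differences ran from 0.02 for Acadm to 0.31 for Hadha. Its median was 0.06, against 0.18 for all genes tested, which were not matched to the members for signal level. By pool, the median member difference was -0.08, -0.07 and -0.13 in pools 1, 2 and 3. The genes most like Acadm were Mif4gd, Wdr83os and Arhgef17, whose log2 differences departed from those of Acadm by a root mean square of 0.011, 0.016 and 0.018 over the 3 pools. Mif4gd read 552.1, 530.6 and 527.0 in the pools and 670.9 in vehicle. Such a pattern was shared by many genes, since 146 of 7149 lay within 0.1 of Acadm.

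**Figure D3:**
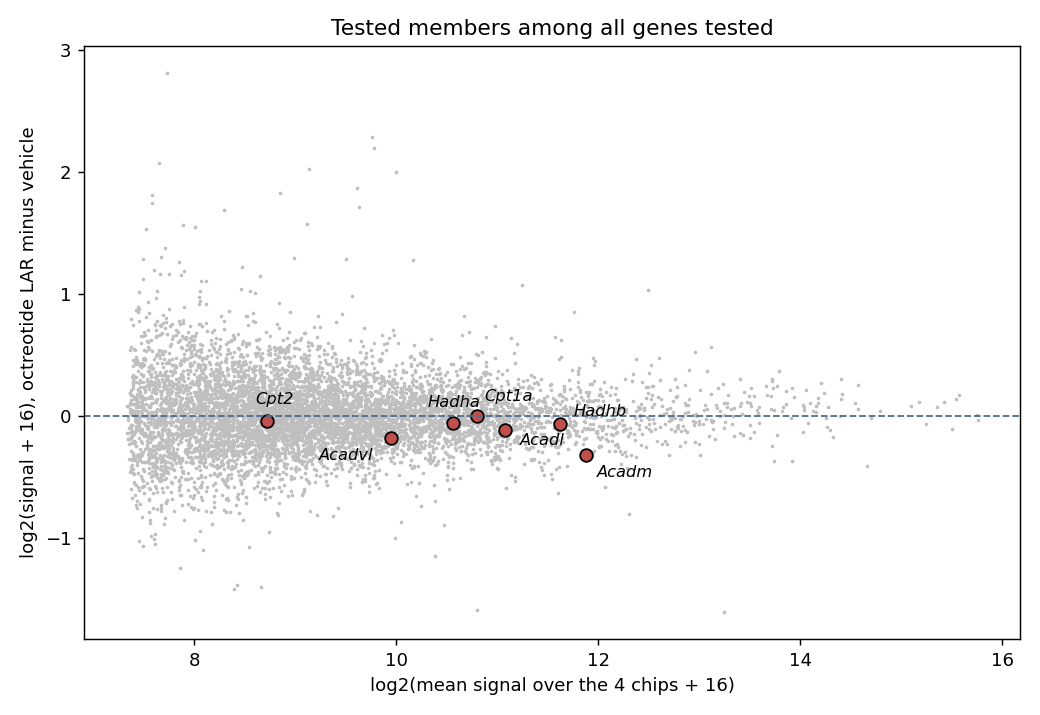
Log2 difference of octreotide LAR from vehicle (y axis) against the level over all 4 chips (x axis, log2 of mean signal + 16) for the 7150 genes tested (grey dots), with the 7 tested members in red. The members lie between -0.32 and 0.00, inside the cloud of genes at their levels.

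The wider pathway was read through 10 lists of other genes sorted by role, which held 114 genes on the chip. Of these 92 were tested, 0 passed (limma, adjusted), 4 had an unadjusted p under 0.05, 61 lay below vehicle in the mean and 31 above. Of all 7150 genes tested, 325 had an unadjusted p under 0.05 in limma and 50.2% lay below vehicle in the mean. In the carnitine shuttle, with 5 genes tested and a median log2 difference of -0.17, Slc25a20 stood on the other side of 0 from the rest. This carrier, which moves acylcarnitines across the inner membrane between the Cpt1a and Cpt2 steps, read 341.6, 215.7 and 230.4 in pools 1 to 3 and 157.0 in vehicle. All pools were above vehicle, at a log2 difference of 0.66 (95% interval -0.07 to 1.39, adjusted p = 0.9998 in limma). Crat, the carnitine acetyltransferase, read 734.8, 629.9 and 514.0 in the pools and 813.4 in vehicle, all lower, at -0.38. The acyl-CoA synthetases, which prime fatty acids for oxidation or for lipid synthesis, had a median of -0.01 over 5 genes tested, with -0.090 to 0.047 when a pool was left out. Among them Acsl3 read 298.6, 377.5 and 395.1 in the pools and 261.7 in vehicle, all higher, and Acss1, the mitochondrial acetate enzyme, 3867, 4154 and 4439 in the pools and 4730 in vehicle, all lower.

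Of the other genes of mitochondrial beta-oxidation 14 were tested, with 0 called. Below vehicle were 12 of the 14 in the mean, against 50.2% of all genes tested, and 9 in all pools (8 with quantile normalization), against 24%. Their median log2 difference was -0.18 overall and -0.13, -0.12 and -0.22 in pools 1, 2 and 3. Eci2, an isomerase for unsaturated chains, read 613.6, 592.3 and 689.0 in the pools and 855.5 in vehicle, at a log2 difference of -0.43 (95% interval -0.89 to 0.03). Hsd17b10, a short-chain dehydrogenase, read 3251, 5251 and 5508 in the pools and 5716 in vehicle, so that it was low in pool 1 and close to vehicle in the others. The 16 genes of general mitochondrial content, chiefly subunits of the respiratory chain, were also mostly below vehicle in the mean, 12 of 16, with 0 called. Their median was -0.02, with 0.06, -0.17 and -0.11 in pools 1, 2 and 3. It was -0.13 without pool 1 and 0.028 without pool 2, while the beta-oxidation median was -0.15 and -0.16 without those pools. Hadha and the brighter Cpt1a probe set (0.10, -0.02 and -0.06) had the same signs by pool as the median of the mitochondrial content list. So did the medians of the parietal markers (0.10, -0.12 and -0.16) and of the pyruvate dehydrogenase list (0.06, -0.22 and -0.13). The same signs were found for markers of smooth muscle (0.09, -0.004 and -0.25) and striated muscle (0.20, -0.14 and -0.09). A shared cause of these signs was not tested. In the mitochondrial content list Uqcrc2, a core protein of complex III, read 4173, 5288 and 5016 in the pools and 5992 in vehicle. Sdhb, the iron-sulphur subunit of complex II, read 5221, 3657 and 4174 in the pools and 5246 in vehicle.

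Peroxisomes shorten very long chains before mitochondria take them over. In the peroxisomal list, with 11 genes tested and a median of -0.13, 7 lay below vehicle in the mean and 4 above. Acox2, the oxidase of branched chains and bile acid intermediates, read 182.4, 144.7 and 237.9 in the pools and 115.5 in vehicle, all higher, at a log2 difference of 0.61. Pex11a, a membrane protein of peroxisome division, read 276.3, 180.8 and 200.8 in the pools and 157.6 in vehicle, all higher, at 0.42. Phyh, which opens the breakdown of phytanic acid, read 2436, 2380 and 2454 in the pools and 3111 in vehicle, all lower, at -0.36 (95% interval -0.71 to -0.003, adjusted p = 0.9998 in limma). The ketone body list had 4 genes tested, all below vehicle in the mean, with a median of -0.07. Oxct1, which activates ketone bodies for burning, read 3474, 4120 and 3405 in the pools and 4594 in vehicle, all lower, at -0.33. Acat1, the thiolase, read 4465, 3756 and 4235 in the pools and 4434 in vehicle, on both sides.

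Regulators of the fasting response gave 0 called genes of 9 tested, with a median of -0.10 that was 0.018 without pool 1 and -0.20 without pool 2. In the mean 5 lay below vehicle and 4 above, with 3 lower and 3 higher in every pool. Those lower in every pool were Foxo1, Rxrb and Rxrg, at log2 differences of -0.28, -0.38 and -0.37 by the brightest probe set. The other Foxo1 probe sets, too dim to be tested, lay on both sides of vehicle. Ppara, the gene of PPAR alpha, was very dim, with 6.0, 12.6 and 14.4 in the pools and 10.4 in vehicle, and was not tested. Pparg, the receptor known for driving fat cell formation, read 336.4, 363.0 and 314.4 in the pools and 230.5 in vehicle, all higher, at a log2 difference of 0.52 (95% interval -0.07 to 1.10, adjusted p = 0.9998 in limma). Creb1 is a factor that binds the cAMP response element found in the Acadm promoter. Its brightest probe set read 426.6, 264.0 and 354.6 in the pools and 232.6 in vehicle, all higher, at 0.53. The other Creb1 probe sets, too dim to be tested, each lay on both sides of vehicle, at 0.17 and -0.65. A link between Creb1 and Acadm was not tested. Nr3c1, the glucocorticoid receptor, read 749.0, 720.9 and 850.6 in the pools and 549.1 in vehicle, all higher, at 0.48 with an adjusted p of 0.9998 in limma. None of these passed.

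Other genes that respond to fasting or to PPAR had a median of -0.06 over 9 tested, 5 below and 4 above vehicle in the mean, with 0 called. Txnip, which restrains glucose uptake, read 11806, 12670 and 18288 in the pools and 11308 in vehicle, with pool 3 far above the others, at a log2 difference of 0.31. Plin2, a coat protein of lipid droplets, read 362.7, 383.3 and 439.0 in the pools and 474.7 in vehicle, all lower, at -0.26. Its other probe set, too dim to be tested, read 123.8, 124.1 and 88.5 in the pools and 104.9 in vehicle, on both sides, at 0.07. Ucp2, an inner membrane carrier, read 2271, 2068 and 1960 in the pools and 2033 in vehicle, on both sides. Angptl4, a lipase inhibitor induced by PPAR, read 76.0, 99.4 and 75.9 in the pools and 104.9 in vehicle, and was too dim to be tested.

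The opposite pathway, fatty acid synthesis, had a median of 0.13 over 10 genes tested, 3 below and 7 above vehicle in the mean, with 0 called. By pool the median was 0.36, 0.07 and 0.05 in pools 1, 2 and 3, and it was 0.046 without pool 1 and 0.23 without pool 2. Elovl5, an elongase of polyunsaturated chains, read 765.3, 876.7 and 979.9 in the pools and 577.5 in vehicle, all higher, at a log2 difference of 0.58 (95% interval 0.11 to 1.04, adjusted p = 0.987 in limma), while its dimmer probe set gave 0.32. Fasn, the fatty acid synthase, read 1444, 1181 and 1221 in the pools and 937.9 in vehicle by its brighter probe set, all higher, at 0.44 (95% interval 0.01 to 0.87, adjusted p = 0.9998 in limma). Its dimmer probe set read 690.4, 326.4 and 456.5 in the pools and 444.3 in vehicle, lower in pool 2. Thrsp, a lipogenic nuclear protein, read 523.4, 39.4 and 208.1 in the pools and 271.6 in vehicle by its brightest probe set. This was the widest scatter of the genes in these lists, at a log2 difference of -0.61. Its other probe sets had the opposite sign. One read 403.6, 135.0 and 175.2 in the pools and 132.7 in vehicle, all higher, at 0.63. The other, too dim to be tested, read 167.9, 28.9 and 101.9 in the pools and 46.3 in vehicle, lower in pool 2, at 0.67. Among the members, pool 1 was the highest treated pool for Cpt1a, Acadm, Hadha and Hadhb, and the lowest for Cpt2, Acadl and Pdk4. For Acadvl it lay between the others. The other genes named from the wider lists were ranked by their brightest probe set. Pool 1 was the highest for Slc25a20, Crat, Pdhb, Pdhx, Pdk2, Pex11a, Acat1, Sdhb, Creb1, Foxo1, Rxrb, Ucp2, Fasn and Thrsp. It was the lowest treated pool for Elovl5, Acsl3, Acss1, Hsd17b10, Uqcrc2, Rxrg, Fabp1, Txnip, Plin2 and the very dim Ppara. Of the 5 adipocyte markers given above, Fabp4, Cfd and Lipe were also highest in pool 1, and Plin1 and Lep in pool 2. The part of fat tissue in these values was not tested.

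**Figure D4:**
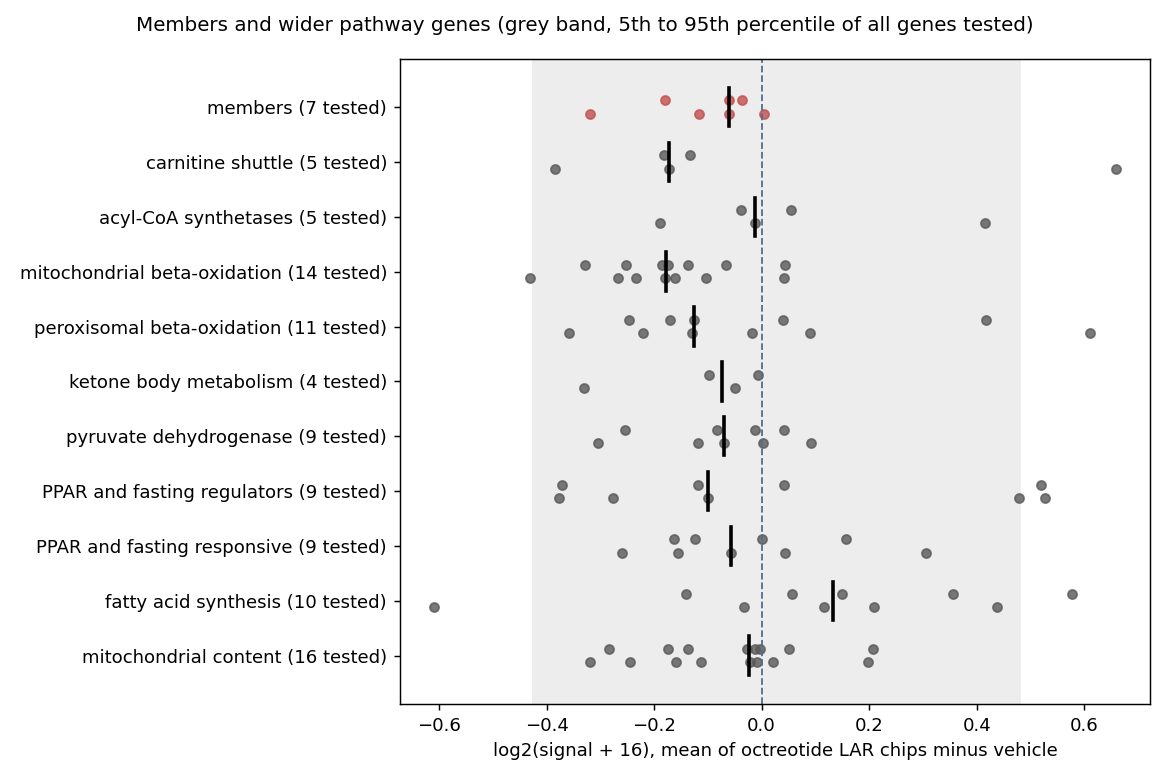
Mean log2 difference of octreotide LAR from vehicle (x axis) for each tested gene (dots, offset only for legibility) of the members (red) and the 10 wider lists (grey), with the median as a black bar. The members' median is -0.06, those of the mitochondrial beta-oxidation and fatty acid synthesis lists are -0.18 and 0.13, and the grey band, the 5th to 95th percentile of all genes tested, spans -0.42 to 0.48.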

How the data were processed

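The deposited value table holds linear intensity values, 1 for each probe set on each chip, as made by the authors from biotin-labelled RNA; how the scans were summarised is not given in the sources used here. Trimmed by 2% at each end, the mean lay between 496.8 and 497.2 on all chips, so a shift in total messenger RNA cannot be seen. Groups follow the titles. The vehicle sample's source name also mentions octreotide LAR, and per the labels each treated pool comes from different animals.

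Signals were taken as log2(signal + 16), which understates differences of dim genes. Probe sets with a mean log2 signal under the 40th percentile (a signal of 144.7) were left out; the design had said mean signal without naming a scale. The other 9520 were fitted in limma 3.58.1 under R 4.3.3 (lmFit, eBayes with a trend), two-sided, with Benjamini-Hochberg adjustment over all of them, on 2 residual and 11.5 prior degrees of freedom. The fit was tested on simulated data. Gene symbols came from the platform table with Entrez updates, and 12783 probe sets name a single gene. A gene is represented by its brightest probe set. The number of chips limits the precision. Members, lists and alternatives were chosen with earlier results of these data known. Named pathway genes are, per list, the 2 with the largest difference, plus Ppara, Angptl4, Ucp2 and Fasn. Pdk2, Phyh, Nr3c1, Foxo1, Rxrb, Rxrg and the marker genes were singled out after their values were seen.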

Additional observations from a re-analysis of the deposited data

How the results depend on the processing

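No member was called under any of the 13 alternatives, nor any gene of the 10 wider lists; 1 member had an unadjusted p under 0.05 without the filter and 1 without pool 1. The count over the chip, 10 as reported, was 0 without the filter on dim probe sets (776 with an unadjusted p under 0.05), 5 with quantile normalization, 5 with centring on the 75th percentile, 1 without a trend of the spread, and 31 to 55 when a treated pool was left out. Acadm ranged from -0.33 to -0.30, with limma adjusted p from 0.688, without pool 1, to 0.999995. Cpt1a, at 0.0042, turned to -0.000316 with centring on the 75th percentile, to -0.15 with the mean of its probe sets and to -0.041 without pool 1 (-0.041 to 0.036 when a pool was left out). Hadha, at -0.06, turned to 0.057 without pool 2 (-0.24 to 0.057). The members' median of -0.061 was -0.12 with the mean of probe sets and -0.093 to -0.041 when a pool was left out. List medians that moved by over the spread between pools were -0.26 for the carnitine shuttle with the filter at the 60th percentile, -0.21 for ketone bodies with the mean of probe sets, and, when a pool was left out, -0.10 to -0.030 for the peroxisomal list and -0.20 to 0.018 for the regulators. Leaving out a pool also gave -0.21 to 0.018 for pyruvate dehydrogenase, -0.13 to 0.028 for mitochondrial content, -0.090 to 0.047 for the synthetases, -0.13 to -0.052 for ketone bodies, -0.11 to -0.014 for the responsive genes and 0.046 to 0.23 for fatty acid synthesis, against -0.19 to -0.15 for the carnitine shuttle and -0.16 to -0.15 for mitochondrial beta-oxidation. A filter on the linear mean, added after seeing the data, gave 8 calls. The cause of these shifts was not tested. No paired analysis was possible because the groups share 1 replicate number only. With 1 vehicle chip, a peculiarity of the vehicle pool and an effect of treatment cannot be told apart.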
